A study of Caenorhabditis elegans with 2 samples.

Results

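Small nucleolar RNAs (snoRNAs) are short nuclear RNAs that guide chemical modification of ribosomal and other RNAs. Box C/D snoRNAs direct the methylation of ribose by fibrillarin, and box H/ACA snoRNAs direct the conversion of uridine to pseudouridine by the enzyme that dkc-1 encodes in C. elegans. Many nematode snoRNA genes lie inside introns of protein-coding genes, and such snoRNAs can be cut out of the host transcript, while others carry a promoter of their own. The genes described here are all 346 nuclear genes of biotype snoRNA in the Ensembl WBcel235 annotation, of 46890 nuclear genes in all, and they were taken from the annotation without use of the peaks. They lie on chromosomes I (74 genes), II (71), III (54), IV (59), V (55) and X (33), and are 54 to 344 bp long.

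The study profiled ZIP-5, a basic leucine zipper transcription factor, by chromatin immunoprecipitation and sequencing in Caenorhabditis elegans. The animals were hermaphrodite late embryos of strain OP544, genotype unc-119(tm4063) III; wgIs544, taken 4 hours after synchronization by egg bleaching, and an anti-GFP antibody recovered ZIP-5 through a C-terminal GFP-FLAG tag. All samples carried the unc-119 allele and the transgene, so the animals held a tagged ZIP-5 copy beside the endogenous gene, and whole organisms were used, so no cell type can be named. There was 1 group of 2 biological replicates, and no immunoprecipitation from animals without the tag was used here, so enrichment that does not depend on ZIP-5 cannot be told apart from binding.

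A snoRNA gene was counted as having a peak when a summit, the single base the peak caller marks within a peak, lay within 100 bp of it. The authors' optimal list holds 730 nuclear peaks that passed a test of reproducibility between replicates. Their pooled list (4362 nuclear entries) and the 2 replicate lists (6231 and 6929) also hold weak background entries. The signal of a peak is the authors' own peak score, which has no stated scale, so it is compared only within a list. Sequencing depth is unknown, and the intervals below are exact 95% intervals that cover the counting of genes only.

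An optimal summit lay within 100 bp of 50 of the 346 snoRNA genes, or 14.5% (10.9 to 18.6), against 1.36% of all nuclear genes. Of the 24923 other nuclear genes no longer than the longest snoRNA gene, 1.12% had one. The share was 20.1% for tRNA genes (123 of 612), 5.43% for snRNA genes (7 of 129), 1.53% for miRNA genes (4 of 261) and 1.52% for protein-coding genes. In the longer lists a summit lay near 72 snoRNA genes in the pooled list (20.8%, against 6.25% of all nuclear genes), 70 in that of replicate 1 (20.2% against 8.26%) and 73 in that of replicate 2 (21.1% against 9.2%). Both replicates had a summit at 57 snoRNA genes, and 259 genes had no summit in any of the 4 lists.

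Summits lay mostly in front of the snoRNA gene and not in it. Around the starts of 26 of the 50 peak genes the sequence holds words that resemble the A box and B box, the pair of internal promoter elements by which the factor TFIIIC recognises tRNA genes for RNA polymerase III. The words searched were TNGNNNANNGG, also with 1 more base before the final GG, for the A box and GTTCNA for the B box, on the strand of the gene, from 100 bases upstream to 20 bases inside the start, with 20 to 70 bases between their first bases. These words were chosen after sequences of this kind had been seen, so their share among peak genes is a description. The windows below are those of 6 genes among the strongest optimal peaks. They are given 5′ to 3′ on the strand of the snoRNA gene from the RefSeq genome of WBcel235, each is 120 bases long with the gene start just after base 100, and capitals mark the A word and then the B word.
C51F7.3: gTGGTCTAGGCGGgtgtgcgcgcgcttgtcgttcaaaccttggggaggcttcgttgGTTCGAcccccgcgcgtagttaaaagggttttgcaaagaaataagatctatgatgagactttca
W03C9.9: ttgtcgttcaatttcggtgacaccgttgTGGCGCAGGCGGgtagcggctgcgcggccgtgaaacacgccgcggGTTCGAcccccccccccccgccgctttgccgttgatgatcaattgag
T06C12.16: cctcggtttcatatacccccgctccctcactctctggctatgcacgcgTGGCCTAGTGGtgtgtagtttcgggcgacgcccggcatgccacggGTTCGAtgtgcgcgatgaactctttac
T03F7.8: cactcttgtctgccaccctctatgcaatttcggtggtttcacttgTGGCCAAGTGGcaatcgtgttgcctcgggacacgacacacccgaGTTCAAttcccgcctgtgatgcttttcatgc
ZK994.7: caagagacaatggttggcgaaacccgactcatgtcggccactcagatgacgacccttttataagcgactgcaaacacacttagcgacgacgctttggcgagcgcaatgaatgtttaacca
H09I01.2: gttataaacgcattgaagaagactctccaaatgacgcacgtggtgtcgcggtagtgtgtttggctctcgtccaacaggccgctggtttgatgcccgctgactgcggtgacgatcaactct

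The window of C51F7.3 is chrV:12303608-12303727 on the plus strand and that of W03C9.9 is chrII:11960798-11960917 on the plus strand. The window of T06C12.16 is chrV:15873907-15874026 on the minus strand, and that of T03F7.8 is chrV:11314158-11314277 on the plus strand. Each of these 4 holds the pair, while ZK994.7 (chrV:8500479-8500598, plus) and H09I01.2 (chrIV:8252994-8253113, plus) hold a strong peak and no pair. The pair of C51F7.3 lies inside the annotated neighbour C51F7.4, whose start is nearer to the same summit and whose own window holds no pair. For comparison, the next windows belong to snoRNA genes with no peak that lie in introns of the 3 hosts with most such genes: nol-56, which encodes a core protein of box C/D particles, rpl-6, which encodes a protein of the large ribosomal subunit, and top-2, which encodes a DNA topoisomerase.
K07C5.10: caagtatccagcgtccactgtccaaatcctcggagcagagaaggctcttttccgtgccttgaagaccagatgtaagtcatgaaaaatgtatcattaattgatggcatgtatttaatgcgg
R151.11: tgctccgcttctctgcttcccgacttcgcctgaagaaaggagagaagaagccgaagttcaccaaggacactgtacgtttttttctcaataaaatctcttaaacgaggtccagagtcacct
K12D12.6: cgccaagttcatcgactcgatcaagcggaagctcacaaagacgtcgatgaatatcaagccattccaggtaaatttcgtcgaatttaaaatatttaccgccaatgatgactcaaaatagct

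They lie at chrV:10351334-10351453 (minus strand, nol-56), chrIII:7208513-7208632 (plus, rpl-6) and chrII:11876360-11876479 (plus, top-2). None of the 3 holds the pair. The intron begins only 29 bp before the start of K07C5.10, 29 bp before R151.11 and 33 bp before K12D12.6, so most of each window is the preceding exon of the host.

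The pair stood upstream of 26 of the 50 genes with an optimal summit (52.0%, 37.4 to 66.3) and of 10 of the 296 without one (3.38%, 1.63 to 6.13). The same window held it at 0.273% of nuclear genes other than snoRNA genes, at 0.23% of protein-coding genes, and on the opposite strand at 2 of 346 snoRNA genes. Searched over the whole gene with 20 bases on each side, 540 of 612 tRNA genes (88.2%) held it. Read the other way, 26 of the 36 snoRNA genes with the pair had an optimal summit (72.2%, 54.8 to 85.8), against 24 of the 310 without it (7.74%, 5.02 to 11.3), a difference of 64.5 percentage points (47.9 to 76.7). With and without the pair the shares were 80.6% and 13.2% for replicate 1 and 77.8% and 14.5% for replicate 2. The words were chosen after sequences of this kind had been seen, so these shares by library are no separate support for the difference. Genes without the pair still had an optimal summit more often than the 1.36% of all nuclear genes. Of the 24, 5 held a looser pair with GTTC as the B word. Among the 300 genes without that looser pair, 19 had an optimal summit (6.33%).

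No annotated tRNA gene lay within 100 bp of any of the 346 snoRNA genes, and none lay within 100 bp of a snoRNA summit, whereas 120 of the 680 other nuclear optimal summits had one. The words in front of snoRNA genes are therefore not those of annotated tRNA genes. In the 26 peak genes the A word began at a median of −59 bp from the snoRNA start (range −99 to −46) and the B word at −14 bp (−44 to −5). The median spacing from A to B was 44 bases, the same value as in the 113 tRNA genes with an optimal summit and the pair. Measured from the A word, the summit lay a median of 17 bp downstream at snoRNA genes (quartiles 6.5 and 32.8) and 23 bp downstream at tRNA genes (−1 and 50). The summit fell between the first bases of the 2 words at 17 of 26 snoRNA genes and at 48 of 113 tRNA genes.

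**Figure D1:**
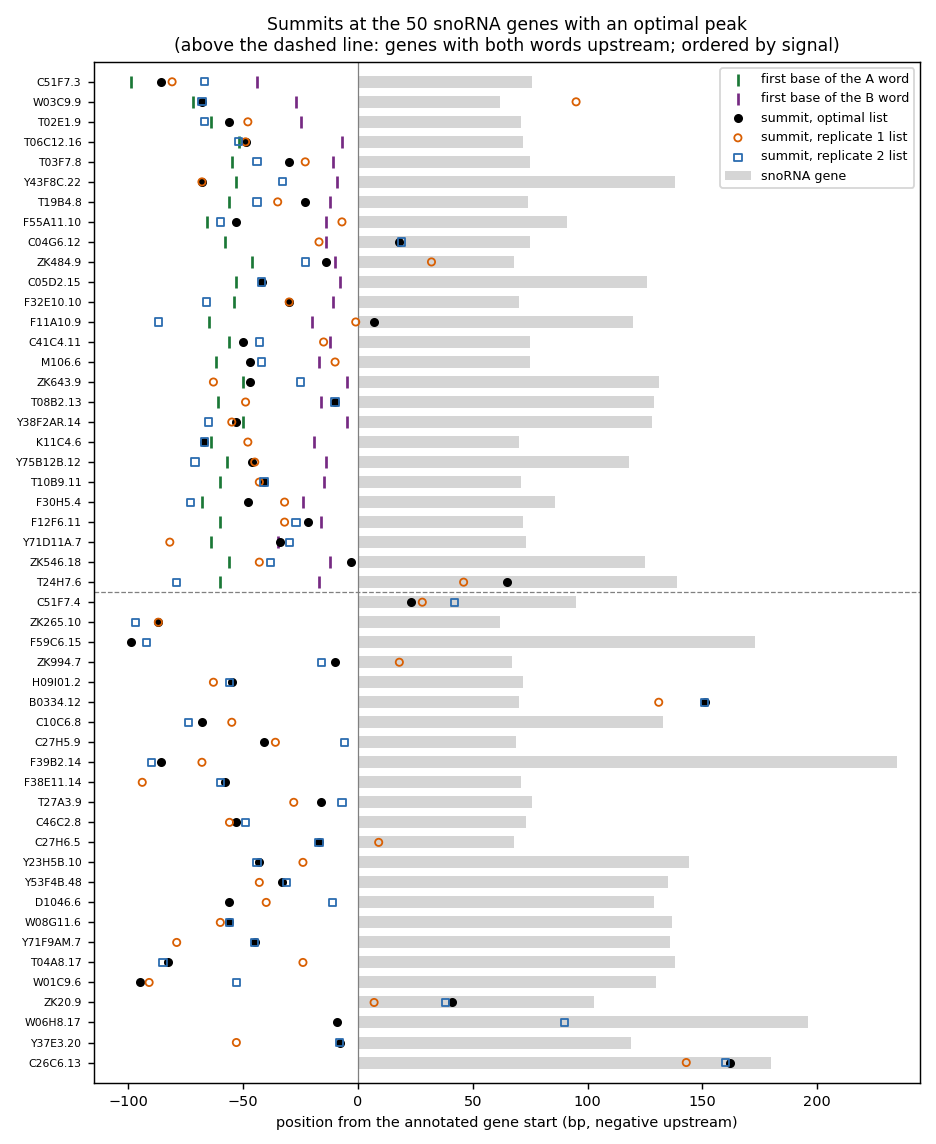
Position of summits, in bp from the annotated snoRNA start (horizontal axis), at the 50 genes with an optimal summit, one row per gene; the bar is the gene, ticks are the first bases of the A and B words, the filled point is the optimal summit and open marks are the summits of each replicate. Most points lie left of the start, with a median of -44 bp, and in the upper block many lie between the green and purple ticks.

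Relative to the annotated start, optimal summits lay at a median of −44 bp (quartiles −56 and −14.5, range −99 to 162). They were upstream of or at the start at 43 of 50 genes (86.0%, 73.3 to 94.2), inside the gene at 6 and beyond its end at 1, B0334.12. The median was −41.5 bp for replicate 1 (52 of 70 upstream) and −43 bp for replicate 2 (60 of 73 upstream). At tRNA genes, whose boxes are internal, the optimal summit lay at a median of 28 bp after the start and was upstream at 22 of 123 genes. The median was −44 bp at snoRNA genes with the pair and also at those without it, so the upstream position was shared by both kinds. Counted over all genes, with or without a peak, 43 of the 346 snoRNA genes had their strongest optimal summit upstream of or at the start. Of all 46890 nuclear genes, 182 (0.388%) had an optimal summit in the 100 bp up to the start. This share is of all genes, so it does not compare with the 86.0% of genes with a peak. The distance limit of 100 bp left little just outside it, since 250 bp took in 2 more genes (52 in all), while at the inner edge F59C6.15 (−99) and W01C9.6 (−95) were counted.

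The strongest snoRNA peak, with a signal of 644.8 in the optimal list and rank 12 of 730, lay over the pair C51F7.4 and C51F7.3 of frm-7, a gene named for its FERM domain. Its signal was 305.0 in replicate 1 and 334.7 in replicate 2, ranks 17 and 9. The summit lay 23 bp inside C51F7.4, which overlaps an exon of frm-7, and 86 bp upstream of C51F7.3, which lies in its intron. This was the only host with more than 1 snoRNA gene called, and only 24 of the 188 hosts held 2 or more snoRNA genes. The same summit was the strongest for both genes, and a further, weaker optimal summit lay at C51F7.3. With each summit given only to the nearest snoRNA gene, 50 of the 346 genes still had one.

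W03C9.9, a 62 bp gene outside protein-coding genes, had an optimal signal of 501.1 at −68 bp, inside its A word, which begins at −72 bp. Replicate 2 had a signal of 266.9 at the same base. Replicate 1 had 240.1 at −105 bp, just outside the distance limit, and a weaker summit of 68.07 at 95 bp within it. Both libraries thus had a strong summit upstream, and only the weak one was counted in replicate 1.

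T06C12.16 (72 bp, outside protein-coding genes) had an optimal signal of 417.4 at −49 bp, with 178.5 in replicate 1 and 237.0 in replicate 2. T03F7.8 (75 bp) lies on the opposite strand within an intron of cutl-18, whose name marks a cuticlin-like gene, and had 357.1 at −30 bp, with 180.3 and 182.1. T02E1.9 (71 bp, chromosome I) overlaps an exon of the opposite strand of spe-12, and had 421.6 at −56 bp, with 227.7 and 193.6. All 3 carry the pair, and their replicate summits lay 3 to 21 bp apart.

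Y43F8C.22, a 138 bp gene in an intron of Y43F8C.7, had an optimal signal of 301.7 at −68 bp (140.7 and 157.8 in replicates 1 and 2). T19B4.8, a 74 bp gene on chromosome I outside protein-coding genes, had 287.4 at −23 bp (132.5 and 156.6). Both also carry the pair.

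The other genes of the 12 strongest lacked it. ZK265.10 (62 bp, chromosome I) had an optimal signal of 513.3 at −87 bp, with 223.4 in replicate 1 and 293.7 in replicate 2. ZK994.7 (67 bp), in an intron of pxn-1, which encodes a peroxidasin, had 383.5 at −10 bp, with 172.6 and 209.3. H09I01.2 (72 bp) had 318.1 at −55 bp, with 143.5 and 171.3. These 3 were thus as high as the genes with the pair, in both libraries.

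F59C6.15 (173 bp, chromosome I) had an optimal signal of 409.6 at −99 bp and 199.8 in replicate 2. Its replicate 1 summit, with a signal of 211.8, lay 124 bp away and so was not counted. B0334.12 (70 bp), on the opposite strand of an intron of twk-5, a potassium channel gene, had 275.3 at 151 bp, with 122.4 and 155.4. It was the only gene whose strongest optimal summit lay beyond its end.

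Over the 50 genes the optimal signal ran from 99.38 (C26C6.13) to 644.8, with a median of 225.4. The 50 distinct optimal summits at snoRNA genes, a further, weaker one at C51F7.3 included, had a median of 212.9, and the 680 other nuclear optimal summits one of 156.2. When the 730 peaks were ranked by signal and cut into 5 groups of 146, the groups from strongest to weakest held 18, 11, 7, 9 and 5 snoRNA summits. Genes with the pair had a median optimal signal of 212.9 and genes without it 235.9, with ranges of 122.2 to 644.8 and 99.38 to 644.8 that overlap almost whole. The pair thus went with having a peak, while among peaks divided in this way the median signal was about as high without it.

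The replicates ordered the genes alike. At the 57 genes with a summit in both, signals had a Pearson r of 0.891 (log10 scale) and a Spearman rho of 0.899. These values describe genes of the same 2 libraries, and the shared summit of C51F7.3 and C51F7.4 entered them 2 times. Of the 57 genes, 47 were optimal, and that list was kept for reproducibility between these replicates. The likeness of the replicates was thus partly set in advance by the choice of genes. The summits lay a median of 25 bp apart, within 50 bp at 47 genes and at most 172 bp apart. All 50 optimal genes had a replicate 2 summit within 100 bp, and 47 a replicate 1 summit. The missing ones were F59C6.15, C05D2.15 (126 bp away, signal 109.5) and W06H8.17 (242 bp away, signal 47.75). Scores are not scaled between lists, and among 47 optimal genes the replicate 1 score was the higher at 9.

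**Figure D2:**
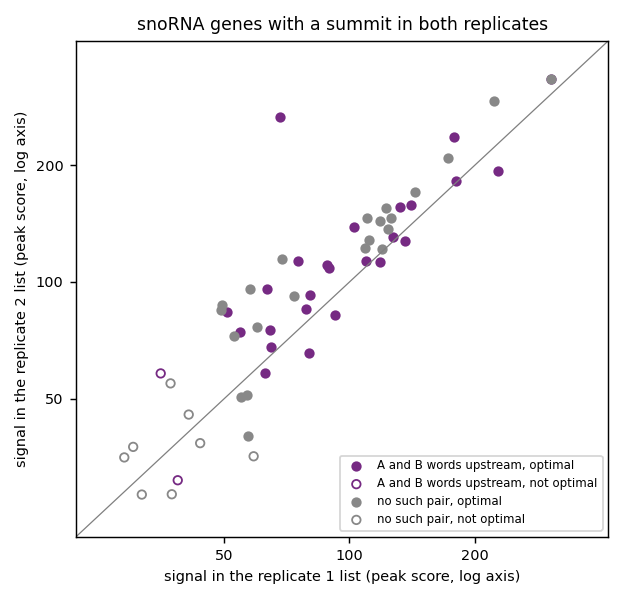
Authors' peak signal at each of the 57 snoRNA genes with a summit in both replicates, replicate 1 on the horizontal and replicate 2 on the vertical log axis, with the line of equal scores; colour gives presence of the A and B words and filled points are optimal genes, with C51F7.3 and C51F7.4 at 1 point. The 2 scores rise together (Pearson r 0.891 on the log10 scale), but most points lie above the line, with replicate 1 higher at 14 of 57 genes. W03C9.9 stands apart at 68.07 and 266.9, and the 10 genes that are not optimal are at the low end.

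A further 22 snoRNA genes had a pooled summit and no optimal one, with signals from 48.36 to 94.42 (median 62.41). All were under the lowest signal of the optimal list, 95.24. The 50 optimal genes had the same signals and ranks in the pooled list, so this order reflects the cut of the list and not a trait of these genes. Of the 22, 10 had a summit in both replicates. The strongest was Y39G10AR.24 (65 bp), with 94.42 in the pooled list, 35.13 in replicate 1 and 58.05 in replicate 2, each at −52 bp, and it carries the pair. K02C4.8 had 86.95, with 41.03 and 45.45, each at −38 bp. Each of this pair of genes thus had 1 summit base in all 3 lists. F47G4.9 had 92.98 at −93 bp, with 58.8 in replicate 1 at −90 bp and 35.46 in replicate 2 at 82 bp, so its libraries placed the summit on different sides of the start. C17D12.8, antisense in an intron of pcmd-1, had 89.79, with 37.1 and 54.71. The gene annotated as smy-2 (72 bp), in an intron of C33A12.3, had 79.41, with 43.72 and 38.34, at −52 to −54 bp.

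Of the 10 genes with the pair and no optimal summit, 4 had a summit in another list and 6 in none. The 4 were Y39G10AR.24, H04D03.5 (pooled signal 71.22), R12E2.17 (50.17) and K09E9.5, with a replicate 1 summit of 27.95 alone. The 6 with none were F46F11.12, Y6B3B.15, R166.7, ZC395.12, T23B12.13 and Y59E1B.14. K09E9.5 and Y59E1B.14 lie on the X chromosome, where none of 33 snoRNA genes had an optimal summit (0 to 10.6%) and 1 had a pooled one, C53B7.8. On the other chromosomes the share ran from 9.26% on III (5 of 54) to 21.8% on V (12 of 55), and the interval of V (11.8 to 35.0) alone did not reach into that of X. No test of this was made.

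Peaks were most frequent at the shortest genes. Of genes up to 80 bp long, 24 of 56 had an optimal summit (42.9%, 29.7 to 56.8). The share was 7.69% above 80 and up to 100 bp (3 of 39), 14.2% from there to 140 bp (18 of 127), 4.62% from there to 180 bp (3 of 65) and 3.39% above 180 bp (2 of 59). Genes up to 100 bp exceeded longer ones by 19.3 percentage points (10.1 to 29.5), and by 18.5 points for replicate 1 and 21.7 for replicate 2. Part of this went with the words: with the pair, 17 of 20 genes up to 100 bp and 9 of 16 longer ones had a summit. Without it the shares were 13.3% (10 of 75) and 5.96% (14 of 235), a difference of 7.38 points (0.34 to 17.2), which in the replicate 1 list was 5.42 points (−2.98 to 16.1). Within each length class genes with the pair had a summit more often, by 71.7 points (48.6 to 83.1) up to 100 bp and by 50.3 points (26.9 to 71.1) above. Short genes also had the stronger optimal peaks, with a median signal of 254.1 against 160.6.

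**Figure D3:**
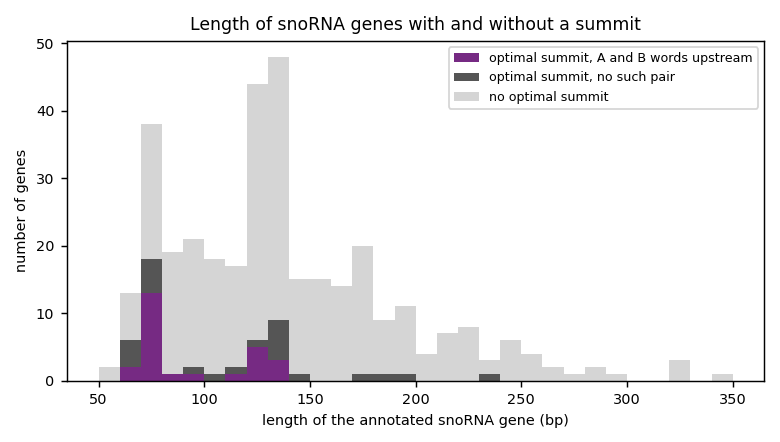
Number of snoRNA genes (vertical axis) by length of the annotated gene in bp (horizontal axis, bins of 10 bp), split into genes with an optimal summit and the A and B words, with an optimal summit and no pair, and with no optimal summit. Of the 56 genes up to 80 bp, 24 have a summit, and a further group of peak genes stands between 100 and 140 bp.

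Peaks were found at genes with marks of both snoRNA classes. CTGA, the core of box D, stood in the last 12 bases of 71 genes, of which 20 (28.2%, 18.1 to 40.1) had an optimal summit, against 30 of 275 others (10.9%, 7.48 to 15.2). An ACA 3 bases before the gene end, the tail of H/ACA snoRNAs, stood in 58 genes, of which 14 (24.1%, 13.9 to 37.2) had one, against 36 of 288 others (12.5%, 8.91 to 16.9). TGATGA, the core of box C, stood in the first 20 bases of 20 genes, of which 6 had one (interval 11.9 to 54.3%). These words depend on where the annotation ends a gene, and most of the 346 genes carried none of them at these places.

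The sequence upstream of peak genes was richer in G and C. The 100 bp before the start had a median GC content of 55.0% with an optimal summit (quartiles 52.0 and 59.8) and 42.0% without (35.0 and 49.2). The genes themselves had medians of 45.0% and 39.7%. GC content can also change the recovery of fragments in sequencing, and its part in the peaks was not tested.

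Other words were also counted, and each differed by fewer percentage points between genes with and without a peak than the pair did. The pair was chosen after sequences of this kind had been seen, so its larger difference was partly set in advance. GTTCGA, a form of the B word, lay on either strand of the window at 18 of 50 genes with a peak (36.0%), at 14 of 296 without (4.73%) and at 3.86% of all nuclear genes. GGTTCGA, a longer part of the B box, lay on either strand of the window at 8 of 50 genes with a peak and 7 of 296 without, and at 0.642% of all nuclear genes. TATAA lay at 14.0% and 23.0%, and at 31.9% of all nuclear genes. GGGCGG, the GC box, lay at 6 of 50 and 17 of 296 (5.74%), and at 2.51% of all. The bZIP words TTGCGCAA and TGACGTCA lay at 0 of 50 peak genes (up to 7.11%), and at 1 and 3 of 296 others, with 0.183% and 0.277% of all nuclear genes holding them. CTAGGCCA, a word that earlier results of these peaks had brought up, lay at 2 of 50 and 1 of 296, and at 0.407% of all. GGGTTCGA, brought up in the same way, lay at 5 of 50 and 1 of 296, and at 0.166% of all. Among all words of 8 bases, read on the strand of the gene, TGGCGCAG was the most frequent of those listed, at 10 peak genes and 5 others and in 0.171% of all windows, and TCGACCCC stood at 8 and 1. The first matches the start of the A word and the second overlaps the end of the B word. They were read from the same windows as the pair, so they are no separate evidence for it.

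The shares by location relative to host genes overlapped in the optimal list. An optimal summit lay at 19 of 142 genes in an intron on the strand of the host (13.4%, 8.25 to 20.1) and at 19 of 124 outside protein-coding genes (15.3%, 9.48 to 22.9). The difference was −1.94 percentage points (−10.7 to 6.49). In the pooled list, where weak summits count, it was −10.5 points (−20.5 to −0.547), with −6.59 (−16.4 to 3.16) for replicate 1 and −11.2 (−21.1 to −1.31) for replicate 2. Genes outside had 15 of the 22 weaker pooled summits, those in sense introns 5. In sense introns 11 of 15 genes with the pair had an optimal summit and 8 of 127 without it, and outside protein-coding genes these counts were 10 of 13 and 9 of 111. They were 3 of 5 (14.7 to 94.7%) and 3 of 22 (2.91 to 34.9%) in antisense introns, and 2 of 3 (9.43 to 99.2%) and 4 of 50 (2.22 to 19.2%) at genes overlapping an exon, where the intervals overlap.

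In introns of the opposite strand 6 of 27 genes had an optimal summit (22.2%, 8.62 to 42.3). Sense minus antisense introns came to −8.84 points (−27.9 to 4.5), an interval that holds 0, as in the replicate 1 list (−31.6 to 3.47), while in the replicate 2 list it did not (−17.1, −36.7 to −0.891). Genes that overlap an exon had 2 of 41 on the same strand and 4 of 12 on the opposite strand. By genome strand the shares were 13.7% on plus (25 of 183) and 15.3% on minus (25 of 163), −1.68 points apart (−9.29 to 5.75).

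**Figure D4:**
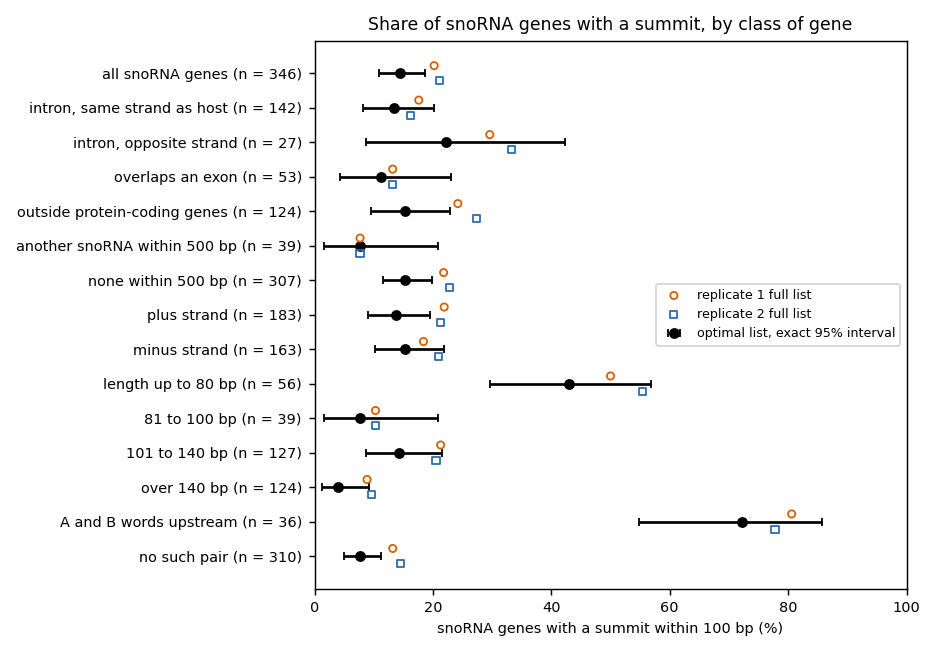
Percent of snoRNA genes with a summit within 100 bp (horizontal axis), by class of gene, with the number of genes in each class; filled points are the optimal list with exact 95% intervals and open marks are the full list of each replicate. The class with the A and B words (72.2%) and that of genes up to 80 bp (42.9%) stand above the others, while location and strand classes overlap.

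Of the snoRNA genes, 39 lay in 18 clusters, with another snoRNA gene within 500 bp. Optimal summits lay at 3 of the 39 (7.69%) and at 47 of 307 single genes (15.3%), a difference of −7.62 points (−14.3 to 5.51). The 3 were C51F7.3 and C51F7.4 with their common summit, and C27H5.9, antisense in an intron of pdl-1 (optimal signal 261.7, replicates 118.7 and 143.7). With clusters drawn at 200 bp the difference was 7.98 points (−8.45 to 40.7), so its sign rests on the distance chosen. In the longer lists the difference at 500 bp was larger and its interval did not hold 0. It was −14.1 points for replicate 1 (−21.2 to −0.805), −15.1 for replicate 2 (−22.2 to −1.76) and −14.8 in the pooled list (−21.9 to −1.44).

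No summit lay at the snoRNA genes of hosts picked by names of ribosomal protein or translation factor genes, which are few. All 19 snoRNA genes of ribosomal protein hosts were without a summit in each of the 4 lists (0 to 17.6%). So were the 5 of hosts with factor names, which were 2 of eef-1G, 2 of eif-4A3 and 1 of iff-2. Their role in translation was not checked. None of the 4 snoRNA genes of nol-56, the host with the most, had an optimal summit: K07C5.18, K07C5.10, K07C5.12 and K07C5.11. The same held for 3 genes of rpl-6 (R151.11, R151.12 and R151.13) and 3 of top-2 (K12D12.6, K12D12.7 and K12D12.8). The intervals of these counts include the 13.4% of sense intron genes as a whole, although the 2 genes of eif-4A3 overlap its exons. All 19 genes of ribosomal protein hosts lacked the A and B words. Among sense intron genes without these words the share with an optimal summit was lower, at 8 of 127 (6.3%).

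Among sense intron genes, the distance from the 5′ end of the intron to the snoRNA start had a median of 159 bp with an optimal summit (lowest 68, quartiles 116 and 324) and 106 bp without (lowest 6, quartiles 33.5 and 626). Genes with a summit were thus absent from the shortest distances, while the upper quartile was higher without one. From the snoRNA end to the 3′ end of the intron the medians were 50 and 113 bp, and intron lengths were 284 and 395 bp. The host start lay 3785 and 1481 bp before the snoRNA in the median. The ranges overlapped on each of these measures. Hosts with a peak in a sense intron included mix-1, which encodes a condensin subunit (M106.6, optimal signal 195.3, replicates 88.54 and 110.7), and unc-70, which encodes β-spectrin (K11C4.6, 164.5, replicates 78.53 and 84.95). A further one was fars-1, which encodes a phenylalanyl-tRNA synthetase subunit (T08B2.13, 174.7, replicates 92.23 and 82.16).

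A peak at a snoRNA gene can also lie in front of a protein-coding gene. Of the 50 genes, 13 (26.0%, 14.6 to 40.3) had their summit within 1000 bp upstream to 200 bp downstream of a protein-coding start, 7 of 26 with the pair and 6 of 24 without. The summit of F39B2.14 (signal 260.6) lay at −432 bp from the start of rps-26, which encodes a small-subunit ribosomal protein, and at −25 bp from that of tmem-107. The other 37 summits lay in no such window. The share of the remaining optimal summits in such windows was not counted, so 26.0% cannot be called high or low.

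The proteins that work with snoRNAs were examined in the same window of their own genes, from a list of 15 names of which 13 distinct genes were matched. An optimal summit lay at 2 of the 13, against 3.32% of all protein-coding genes. At fib-1, which encodes fibrillarin, the optimal signal was 385.5 at −216 bp, with 207.2 in replicate 1 and 191.3 in replicate 2. At ruvb-1, which encodes an AAA+ ATPase that takes part in assembling these particles, it was 129.1 at −32 bp, with 79.35 and 50.83. Both genes were thus called in each library.

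In the pooled list 6 of the 13 had a summit, against 10.8% of protein-coding genes. The 4 beyond those named were Y48A6B.3 (94.99), ruvb-2 (64.9), nol-56 (61.68) and nol-58 (53.19), the last a second box C/D core protein. Each replicate list had 7 of the 13, against 12.6% and 13.6%. No summit in any list lay at snu-13, nola-3, dbr-1 or crn-3. The gene dkc-1 had one in replicate 1 only (25.41), and garr-1 (26.47) and xrn-2 (38.25) in replicate 2 only. Thus nol-56 had a weak pooled summit upstream of its start, at −317 bp (−230 and −315 bp in replicates 1 and 2), and no optimal summit at the snoRNA genes within it.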

How the data were processed

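The peak lists analysed here came from ChIP-seq of ZIP-5-eGFP in 2 biological replicates. Each replicate has a list called against a control and a further list comes from both together, per the labels' file listings, and the optimal list was derived from these 3 by the irreproducible discovery rate. Which aligner, peak caller, settings and threshold were used is not given in the sources used here. The signal value in the deposited lists is a peak score by the authors with no stated scale, and it was used to describe and rank peaks within a list. The lists in ce11 coordinates were used, which are those of WBcel235, and all nuclear entries ended inside its chromosomes. The ce10 lists were not used here, and no coordinate was converted.

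Genes came from the Ensembl 115 annotation and bases from the RefSeq genome of WBcel235. Coordinates are counted from 1. For each gene the strongest summit within 100 bp was taken in each list. Hosts are protein-coding genes. A gene overlapping an exon of such a gene was put in that class, and a gene wholly within introns in the intron classes. Shares carry exact Clopper-Pearson 95% intervals and differences of shares Newcombe intervals. With 1 group of 2 libraries no test between groups was possible, and genes that share a summit or a host are not independent, so no p-value is given. Alternatives changed the distance, list, assignment, peak strength, cluster distance or words, or left out a library by taking as many of the strongest entries of the other replicate's list. The rules named the 12 snoRNA genes with the strongest optimal summit, the 5 with the strongest pooled summit and no optimal one, the hosts with the most snoRNA genes with a peak (frm-7), the 3 with most and no peak, and the snoRNA protein list. Sequences were printed for the first named genes with and without peaks that do not lie on chromosome I, apart from C51F7.3 and K07C5.10. C51F7.3, which carries the pair, stands in place of C51F7.4, which does not. K07C5.10 stands in place of K07C5.18, the first listed gene of nol-56. Where a summit lay near a pair of genes it counted under the one with the nearer start. C51F7.3 and the genes named for the pair, for location, for the ends of ranges and for hosts with a peak were named after their values were seen. The members and lists were chosen with earlier results of these data known, and the A and B words, the length classes and the host classes after the sequences or values were seen. The name exos-10 was not matched, M28.5 and snu-13 are 1 gene, and Y66H1A.4 and K01G5.5 were matched as garr-1 and dkc-1 through the RefSeq table. Overlap, position and word searches were tested on simulated data. Python 3.11.15, pandas 2.3.3, NumPy 2.4.6, SciPy 1.17.1 and matplotlib 3.10.9 were used.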

Additional observations from a re-analysis of the deposited data

How the results depend on the processing

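Of 71 recomputed summary values, 64 stayed within the spread allowed and 7 moved, with no change of direction by that measure. The share of snoRNA genes with a summit (14.5%) was 1.73% for summits inside the gene, 9.25% within 50 bp, 10.1% with the stronger 50% of the optimal peaks and 20.8% in the pooled list. The median position (−44 bp) was −22.5 bp within 50 bp. The difference between clustered and single genes (−7.62 points) was −14.8 in the pooled list and 7.98 with clusters at 200 bp, so its sign is not settled. With 1 replicate left out the share was 14.2% each time, the upstream share 81.6 to 91.8%, the median position −44 to −43 bp, the difference by location −1.84 points, by clustering −7.29, by host strand −13.2 to −9.55, by length 21.1 and by the A and B words 61.7 to 67.9 points. The word result, an alternative definition of which was added after seeing the data, was 66.7 points with the narrower A word (TGG in place of TNG) and 61.1 with GTTC as the B word. For single genes 12 of 45 recomputed positions moved and 3 changed side of the start: with either replicate left out, W03C9.9 was at −68 or 95 bp, ZK994.7 at −16 or 18 bp and F47G4.9 at −90 or 82 bp, the positive value coming without replicate 2 for the first pair and without replicate 1 for F47G4.9. At W03C9.9 the stronger replicate 1 summit lay beyond the 100 bp limit; for the others the cause was not tested.

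No paired analysis was possible because there is 1 group and no test between groups. The lists hold no read counts, so a gene without a summit cannot be told apart from one with too few reads. The summits of the replicates lay a median of 25 bp apart, and annotated snoRNA starts need not be transcription starts.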
